A study of Mus musculus with 8 samples.

Results

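Axon guidance genes encode the secreted and membrane-bound cues that steer growing nerve fibres, and the receptors that read those cues. The genes described here are 48 semaphorins, plexins, neuropilins, Slits, Robos, a netrin and its receptors, ephrins and Eph receptors, chosen by name. The list of names was drawn up with earlier results of these data known. Of the 48 genes, 47 had a row among the 20681 rows of the deposited table, and Dcc, a netrin receptor, is not analysed here. RNA came from knee joints of mice, 8 libraries in all. Of these 4 carried the label control and 4 the label knockout for Loxl2, which encodes a collagen-crosslinking lysyl oxidase. Mice of the series carried Acan-Cre, a Cre recombinase driven by the gene of the cartilage proteoglycan aggrecan, with floxed Loxl2 alleles. That driver is known for acting in cartilage cells, while a whole joint holds many other cells. The control joints were described as vehicle-treated wild type for Loxl2 (LOXL2wt) and the others as LOXL2ko, and DMM, usually a surgical destabilisation of the meniscus, stood in the library names of both groups. The agent given to the knockout group in place of vehicle, the age and the sex were not given in the sources used here. Nothing stated that a library was a single animal, so p-values measure the spread between these 8 libraries.

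The libraries held 13991000 to 17411617 reads assigned to genes. Every pair of libraries within a group differed by more than counting error. Loxl2 itself stood at 282, 349, 1135 and 311 normalised reads in the 4 control libraries, in replicate order, and at 893, 1468, 960.3 and 1518 in the others (log2 difference 1.44, SE 0.40, limma adjusted p = 0.0294). It was higher in the libraries labelled knockout, though a count over a whole gene need not show a deleted stretch. Moreover control replicate 3 lay within the range of the other group, so every direction below refers to the labels and not to a shown loss of Loxl2. Of 12 cartilage cell markers 11 had a row and were tested, and so were 18 of 18 skeletal muscle markers. Of the cartilage cell markers 2 were higher and 0 lower at a limma adjusted p under 0.05, against 11.6% each way over all genes. Their median log2 difference was 0.79. In sum they had 15864 to 38982 in the control libraries and 33575 to 58040 in those labelled knockout. Nerve cell bodies lie outside the joint. Among 13 neuron markers 6 had a row and 3 were abundant enough to test. The 6 summed to 327 to 447 in the control libraries and 307 to 530 in those labelled knockout. Uchl1 alone had means of 331 and 313. Tubb3 went from 20.7 to 51.6 without overlap of the groups (log2 difference 1.33, SE 0.43, limma adjusted p = 0.0511). Prph went from 19.7 to 33.9 (log2 difference 0.60, SE 0.43, limma adjusted p = 0.343). None of the 3 was called.

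Semaphorins signal through plexins, with neuropilins as co-receptors for the secreted class 3 members. Slits signal through Robos, netrins through Dcc, neogenin and Unc5 receptors, and ephrins through Eph receptor tyrosine kinases on touching cells. In skeletal tissue these systems are known for more than nerve growth, since they also direct vessel sprouting, cell sorting and the exchange between osteoclasts and osteoblasts.

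Values are normalised read counts, the reads of a gene divided by a size factor of its library. Differences are those of log2(value + 1) between the libraries labelled knockout and the control libraries, with n = 4 per group, and they understate the change of genes with low values. A gene is called at a limma adjusted p under 0.05. Of the 47 genes, 46 reached 10 normalised reads in 4 or more libraries and were tested. The group labelled knockout had 15 of them called higher and 1 called lower, and 30 were not called. Over all 14949 genes tested, 11.6% were called higher, 11.6% lower and 23.2% in either direction. The share among the guidance genes was 32.6% higher and 2.17% lower. These genes were listed with earlier results of these data known, so the shares are a description, and no test was made over the list. The median log2 difference was 0.39 over the 46 guidance genes and 0.00 over all genes tested. The groups did not overlap for 12 guidance genes that were higher and 1 that was lower, against 11.7% and 13.4% of all genes. Receptors made up most of the genes called higher, with 11 of 21 tested and 0 lower. Of 25 tested ligands 4 were called higher and 1 lower. At an unadjusted limma p under 0.05, in either direction, were 13 receptors and 11 ligands, against 5741 of all 14949 genes. The difference between ligands and receptors was not tested. Without replicate 4 labelled knockout 9 guidance genes were called higher, and over all 14949 genes 831 were, against 1732 with all 8 libraries. The balance over all genes depended on scaling: 50.04% of called genes were higher as deposited, and 77.5% when libraries were scaled without muscle, blood and the 50 highest genes. Under that scaling the median of all genes moved to 0.15, and 22 guidance genes were called higher, against 18.1% of all genes, and 1 lower. The 7 added there were Sema3d, Sema5a, Sema6b, Sema7a, Plxna1, Neo1 and Efnb1. edgeR also called 15 guidance genes higher (11.3% of all genes) and DESeq2 17 (14.3%). With the marker score of skeletal muscle or of fibroblasts as a covariate limma called 0 genes. At an unadjusted limma p under 0.05 were then 3 and 2 guidance genes (2 and 1 of them higher), against 586 and 705 of all 14949 genes. Differences between the groups made up 84.9% of the variance of the muscle score and 78.7% of that of the fibroblast score.

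**Figure D1:**
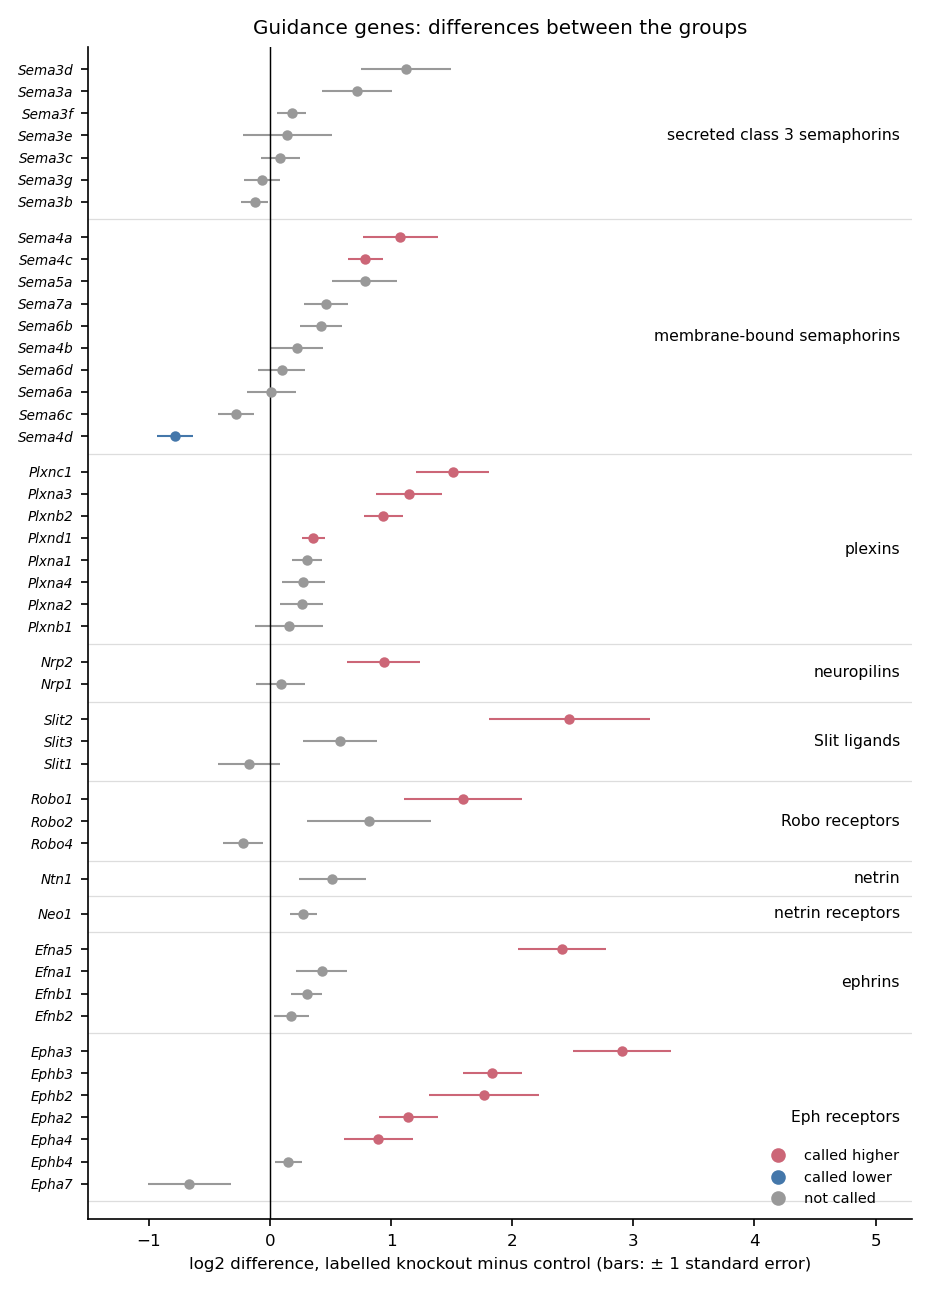
Log2 difference of each of the 46 tested guidance genes (x axis, libraries labelled knockout minus control, bars ± 1 standard error of the limma fit), grouped by role (y axis). Of the points, 15 are called higher, 1 (Sema4d) is called lower and the 30 in grey are not called.

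Among Eph receptors 5 of 7 were called higher and 0 lower, against 11.6% each way over all genes. Their median difference was 1.14. Of the 4 ephrins 1 was called higher. The A-type ephrins are anchored in the membrane by a lipid and bind EphA receptors, while B-type ephrins span the membrane and bind EphB receptors, and both partners signal. Efna5 and Epha3 encode a ligand and one of its high-affinity receptors, and they had the 2 largest differences of the family.

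The stretches upstream of the starts of 4 of these rising genes are shown because each has a single start in the table and together they show how unlike the promoters are. Each is the 250 bases before the RefSeq transcription start, on GRCm38.p6, the build of mm10, written 5′ to 3′ on the strand of the gene. Capitals mark matches on either strand to any of 4 motifs, of which none overlaps another here. The GC box, known for binding Sp-family factors, was searched as GGGCGG. For the TATA box, which places the start of transcription, the letters were TATAAA. AP-1, the site of Fos and Jun, was searched as TGANTCA. The motif of the TEAD factors was searched as GGAATG. Efna5 spans chr17:62881318-62881567, minus strand, Epha3 spans chr16:63864176-63864425, minus strand, Epha2 spans chr4:141300971-141301220, plus strand and Slit2 spans chr5:47982905-47983154, plus strand.
Efna5: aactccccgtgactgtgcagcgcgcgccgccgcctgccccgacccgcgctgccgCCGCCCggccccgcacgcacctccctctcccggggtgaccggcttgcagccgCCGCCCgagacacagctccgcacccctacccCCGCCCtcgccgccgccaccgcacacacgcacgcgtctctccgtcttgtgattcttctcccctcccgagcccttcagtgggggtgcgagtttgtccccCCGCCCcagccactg
Epha3: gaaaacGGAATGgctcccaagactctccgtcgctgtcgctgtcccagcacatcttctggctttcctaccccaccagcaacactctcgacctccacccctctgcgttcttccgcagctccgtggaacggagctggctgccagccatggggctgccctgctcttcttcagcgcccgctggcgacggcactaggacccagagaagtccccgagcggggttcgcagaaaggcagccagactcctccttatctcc
Epha2: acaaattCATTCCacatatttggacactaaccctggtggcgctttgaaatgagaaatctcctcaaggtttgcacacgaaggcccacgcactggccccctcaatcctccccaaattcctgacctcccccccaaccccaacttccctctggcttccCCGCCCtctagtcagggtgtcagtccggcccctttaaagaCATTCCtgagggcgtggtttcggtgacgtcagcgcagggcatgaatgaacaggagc
Slit2: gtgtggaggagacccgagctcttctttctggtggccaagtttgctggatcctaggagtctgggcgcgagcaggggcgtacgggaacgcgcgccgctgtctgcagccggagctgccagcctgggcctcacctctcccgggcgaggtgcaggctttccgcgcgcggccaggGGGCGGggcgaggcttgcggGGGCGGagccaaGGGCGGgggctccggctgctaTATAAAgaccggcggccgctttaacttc
Efna5 held 4 GC boxes and was 74.8% G or C. Epha3 held no GC box and 1 TEAD match. Epha2 held 2 TEAD matches and 1 GC box. Slit2, a Robo ligand, held 3 GC boxes and 1 TATA box, which ended 23 bases before the start. All 15 genes called higher had at least 1 upstream window, 20 windows in all. A GC box stood in windows of 12 of the 15 genes, the TEAD motif in 4, the AP-1 motif in 1 (Sema4c) and the TATA box in 1 (Slit2). By window, 16 of the 20 held a GC box, against 32.7% of the 32851 windows of all genes. The shares of all windows with the other motifs were 12.6% for TEAD, 6.75% for AP-1 and 12.4% for TATA. The 20 windows were also richer in G and C, with a median of 65.2% against 52.4% over all windows. Sema4a, Sema4c and Plxnb2 had several windows each, so the 20 are not separate genes. The windows of all genes were taken whether or not the gene was tested here. Windows of the guidance genes not called were not compared, so neither share is shown to be particular to the rising genes. A match describes letters and not a bound site, and no binding was measured.

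Efna5 (chromosome 17, 62604184 to 62881317 of mm10, as are all coordinates) rose most among the ligands of this system. Its normalised read counts were 24.9, 8.08, 26.2 and 14.2 in the control libraries and 129, 80.4, 75.0 and 95.9 in those labelled knockout, each list running from replicate 1 to 4 as do all lists below. Every library labelled knockout lay above every control library, with replicate 1 the highest. The mean went from 18.3 ± 8.68 to 95.0 ± 24.1 (SD, n = 4; log2 difference 2.41, SE 0.37, limma adjusted p = 0.00456). Epha3 (chromosome 16, 63543534 to 63864175), whose mean of all libraries was under the 50 set for showing each library, is shown, chosen after its values were seen, because it had the largest difference of the 46. It had 5.41, 5.05, 14.02 and 9.86 in the control libraries and 119, 50.5, 45.7 and 68.7 in those labelled knockout. Control levels were low, so the size of the difference (2.91, SE 0.41, limma adjusted p = 0.00399) rests on few reads there, while the groups lay far apart. For Efna5 and Epha3 alike replicate 1 was the highest of the libraries labelled knockout. Control replicate 2 was the lowest of all 8 for Efna5. For Epha3 control replicates 1 and 2, at 5.41 and 5.05, held too few reads to be ordered.

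Ephb3 and Ephb2 encode receptors of the B-type ephrins. Ephb3 (chromosome 16, 21204755 to 21223305) had 47.6, 49.5, 99.1 and 44.9 in the control libraries and 187, 216, 190.3 and 234 in those labelled knockout. Control replicate 3 stood above the other control libraries, which lay close together, and still below every library labelled knockout. The difference was 1.84 (SE 0.25, limma adjusted p = 0.00397), and without control replicate 3 it was also called. Ephb2 (chromosome 4, 136647539 to 136835988) had 21.6, 34.3, 49.5 and 8.76 and 66.8, 91.5, 72.9 and 114. The groups did not overlap, and the control libraries spread widely. It rose by 1.77 (SE 0.45, limma adjusted p = 0.0218), a call lost without replicate 2 (limma adjusted p = 0.0538) or 4 (0.0685) labelled knockout. Ephb4, the receptor of ephrin-B2 in veins, was not called, with 382 to 409.9 in the control libraries and 379 to 520.0 in those labelled knockout (log2 difference 0.15, SE 0.11, limma adjusted p = 0.333). The annotation places exons of Zan opposite Ephb4, and the strand setting of the counting is not stated.

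Epha2 and Epha4 were called at smaller differences, and Epha7 was not called. Epha2 (chromosome 4, 141301240 to 141329384), a receptor of ephrin-A1, had 162, 82.8, 144 and 94.2 in the control libraries and 362, 226, 226 and 238 in those labelled knockout. Replicate 1 was the highest library of both groups, and the groups did not overlap (log2 difference 1.14, SE 0.24, limma adjusted p = 0.0118). Epha4 (chromosome 1, 77367185 to 77515088), which binds ephrins of both types, overlapped between the groups, since control replicate 3 (58.0) lay above replicate 4 labelled knockout (51.9). Its other values were 37.9 to 39.4 and 76.1 to 132 (log2 difference 0.90, SE 0.28, limma adjusted p = 0.0466). That call was lost without control replicate 1, 2 or 4 or replicate 1, 2 or 3 labelled knockout, at limma adjusted p-values of 0.0826 to 0.105. It was also lost without the filter on low values (0.0559) and under quantile normalisation (0.127). Epha7 had 35.5 to 79.7 in the control libraries and 17.1 to 37.8 in those labelled knockout, and was the only Eph receptor with a negative difference (log2 difference -0.66, SE 0.34, limma adjusted p = 0.184).

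The other 3 ephrins of the list, Efna1, Efnb1 and Efnb2, had smaller differences than Efna5 and were not called. Efna1, an ephrin known from vessels and epithelia, had 148 to 250.5 in the control libraries and 233 to 406 in those labelled knockout (log2 difference 0.43, SE 0.21, limma adjusted p = 0.166). Efnb1, which patterns bone-forming cells, had 203 to 263 in the control libraries and 247 to 309.9 in those labelled knockout (log2 difference 0.30, SE 0.13, limma adjusted p = 0.113). Efnb2, an arterial ligand that osteoclasts also carry, had 237 to 303 in the control libraries and 244 to 359 in those labelled knockout (log2 difference 0.18, SE 0.14, limma adjusted p = 0.392). Compared per kilobase of annotated exon, the uncalled ephrins were the more abundant. Efna1 had 116 normalised reads per kilobase in the control group, Efnb1 66.2, Efnb2 37.9 and Efna5 4.55. In the group labelled knockout Efna5 reached 23.6 and remained the lowest of the 4. Among the receptors Ephb4 had the highest control level at 85.6 per kilobase and Epha3 the lowest at 0.988.

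**Figure D2:**
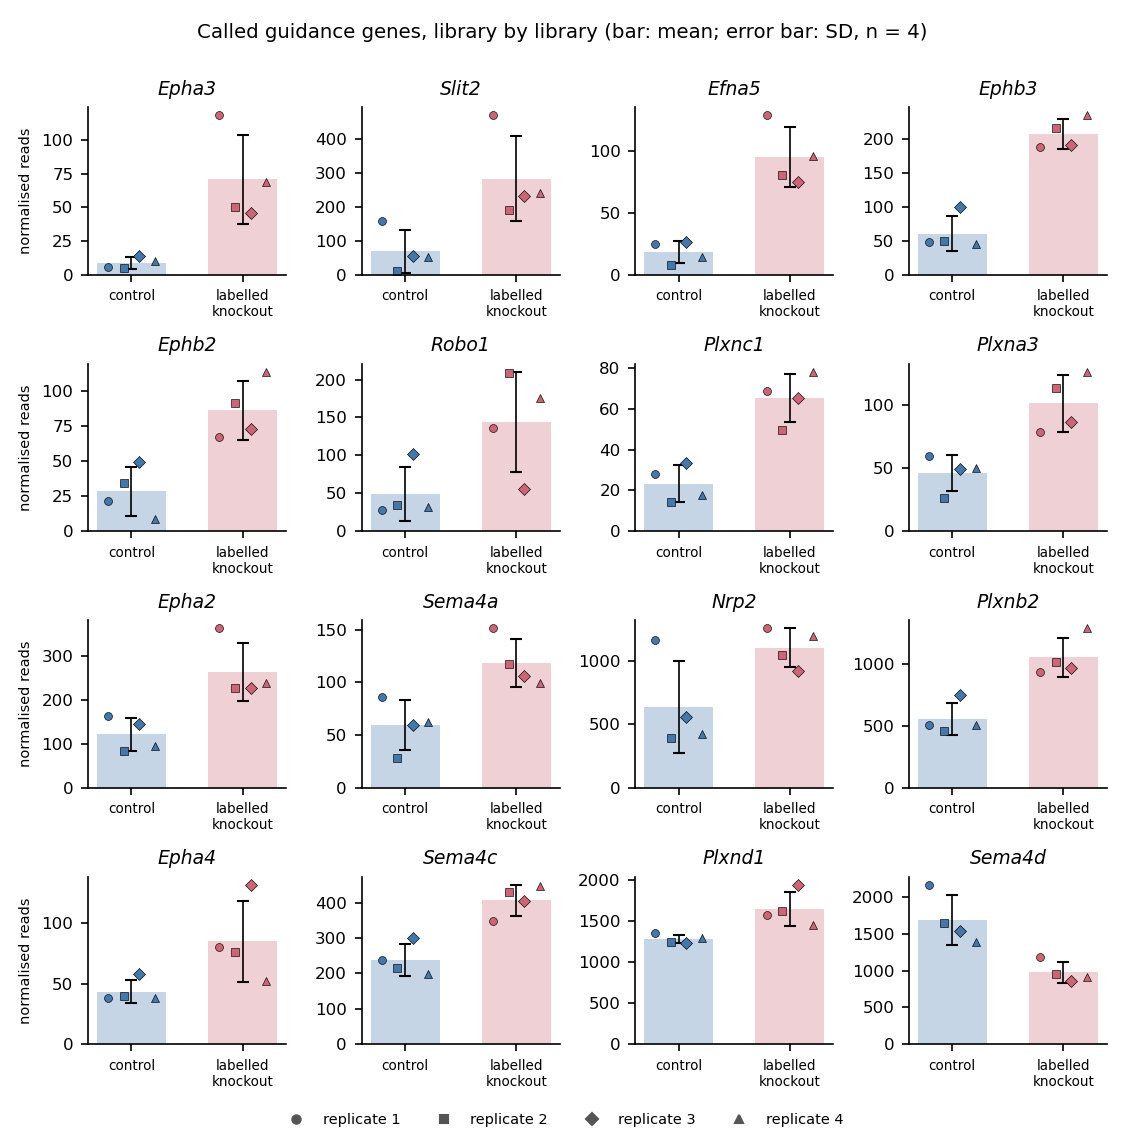
Normalised read count (y axis, linear, from 0) of the 16 called guidance genes in the 4 control libraries and the 4 labelled knockout (x axis), ordered by difference from Epha3 to Sema4d. Bars are means, error bars SD with n = 4 and symbols replicates, and the groups overlap for Robo1, Nrp2 and Epha4.

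Slit proteins are large secreted cues that repel axons and other migrating cells through Robo receptors. Slit2 (chromosome 5, 47983138 to 48307733) had 159, 10.1, 56.1 and 52.6 in the control libraries and 472, 192, 232 and 241 in those labelled knockout. Replicate 1 was the highest of each group, and control replicate 2 was far below the rest of its group. The groups did not overlap (log2 difference 2.47, SE 0.67, limma adjusted p = 0.0262). The call was lost without control replicate 4 (limma adjusted p = 0.0543) or replicate 1 (0.0667) or 4 (0.0634) labelled knockout, and without replicate 3 of both groups (0.0546). Slit3 had 73.7 to 196 in the control libraries and 162 to 272 in those labelled knockout (log2 difference 0.58, SE 0.30, limma adjusted p = 0.189), and Slit1 had 32.3 to 55.1 in the control libraries and 28.3 to 48.8 in those labelled knockout (log2 difference -0.17, SE 0.26, limma adjusted p = 0.662). Per kilobase Slit3 was the most abundant Slit, with 25.8 for the control group and 36.7 for the group labelled knockout, where Slit2 had 11.2 and Slit1 6.38. That order depends on the length used, all annotated exons together, which was 25.4 kilobases for Slit2 and 6.07 for Slit3. In normalised reads the group labelled knockout had a mean of 284 for Slit2 and 223 for Slit3.

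Robo1 (chromosome 16, 72308306 to 73046095), a receptor of Slit2, had 28.1, 34.3, 102 and 31.8 in the control libraries and 137, 209, 55.5 and 176 in those labelled knockout. Control replicate 3 lay above replicate 3 labelled knockout, so the groups overlapped (log2 difference 1.59, SE 0.48, limma adjusted p = 0.0402; exact two-sided permutation p = 0.0571). The call was lost without control replicate 1, 2 or 4 or replicate 1, 2 or 4 labelled knockout, at limma adjusted p-values of 0.0805 to 0.111, under quantile normalisation (0.0727) and with the replicate number as a block (0.0970). Without control replicate 3 the difference was called at a limma adjusted p of 0.0108. Robo2, a further Slit receptor, had 6.54 to 48.7 in the control libraries and 23.1 to 43.1 in those labelled knockout (log2 difference 0.82, SE 0.51, limma adjusted p = 0.270).

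Robo4, the Robo of vascular endothelium, had 373, 309.9, 369 and 358 in the control libraries and 269, 266, 432 and 267 in those labelled knockout. Replicate 3 labelled knockout was the highest of all 8 libraries, and the other 3 of its group were the lowest (log2 difference -0.22, SE 0.16, limma adjusted p = 0.350). Without that library Robo4 was called lower, with a difference of -0.39 (limma adjusted p = 0.0274). The 10 endothelial markers were also highest in that library. Their summed value was 6122 to 7791 in the control libraries, 4851, 7196 and 5752 in replicates 1, 2 and 4 labelled knockout and 9839 in replicate 3. Of the 10 markers 0 were called by limma (0 at an unadjusted p under 0.05, against 5741 of all 14949 genes), and their median log2 difference was -0.08. Their part in the levels of Robo4 was not tested. In bulk tissue fewer cells of a type and less RNA per cell cannot be told apart, for this and for every other gene here.

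Netrin-1 is a secreted cue related to laminins, and neogenin is a receptor for it and for the repulsive guidance molecules. Ntn1 (chromosome 11, 68209364 to 68400823) had 647, 533, 904 and 768 in the control libraries and 742, 1256, 666 and 1615 in those labelled knockout. Replicates 2 and 4 labelled knockout were the highest, while replicates 1 and 3 lay among the control libraries (log2 difference 0.52, SE 0.28, limma adjusted p = 0.200; exact two-sided permutation p = 0.229). Neo1 (chromosome 9, 58874687 to 59036441) had 835, 1005, 1045 and 799 and 1237, 1042, 1010.3 and 1159. Control replicate 3 lay above the lowest libraries labelled knockout (log2 difference 0.28, SE 0.11, limma adjusted p = 0.0997; exact two-sided permutation p = 0.0857). Neither was called. Per kilobase both stood at a like level, 114 for Ntn1 and 106 for Neo1 in the control group.

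Of the 7 class 3 semaphorins, the secreted members that act through neuropilin and plexin-A complexes, 0 were called by limma, with a median difference of 0.14. At an unadjusted limma p under 0.05 were 2 of the 7, against 5741 of all 14949 genes. edgeR and DESeq2 each called Sema3d alone of the 7. Sema3c, the most abundant per kilobase (129.8 in the control group), had 741, 897, 1003 and 1066 normalised reads in the control libraries and 878, 1147, 759 and 1187 in those labelled knockout. The groups overlapped over most of their ranges (log2 difference 0.09, SE 0.16, limma adjusted p = 0.727; exact two-sided permutation p = 0.657). Sema3d, a vessel and bone cue, had the largest difference of the class, with 43.4 to 106 in the control libraries and 79.4 to 254 in those labelled knockout (log2 difference 1.12, SE 0.37, limma adjusted p = 0.0525). It was called without control replicate 3 (limma adjusted p = 0.0314) or replicate 3 labelled knockout (0.0177), and also by edgeR (adjusted p = 0.0485) and DESeq2 (adjusted p = 0.00988). Sema3a, which repels sensory axons and restrains bone resorption, had 58.4, 35.3, 59.8 and 103 and 109, 98.4, 80.5 and 113. Control replicate 4 lay within the range of the other group (log2 difference 0.72, SE 0.29, limma adjusted p = 0.0966), and without it Sema3a was called (difference 0.98, limma adjusted p = 0.0328).

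The other 4 class 3 genes were not called, with differences between -0.13 and 0.18. Sema3b, known as a growth-restraining semaphorin, had 355 to 436 in the control libraries and 306 to 381 in those labelled knockout (log2 difference -0.13, SE 0.11, limma adjusted p = 0.436). Sema3e, which binds plexin-D1 without a neuropilin, had 56.2 to 177 in the control libraries and 85.9 to 177 in those labelled knockout (log2 difference 0.14, SE 0.37, limma adjusted p = 0.807). Sema3f, a ligand of neuropilin-2, had 257 to 289.8 in the control libraries and 259 to 359 in those labelled knockout (log2 difference 0.18, SE 0.12, limma adjusted p = 0.296). Sema3g, an arterial semaphorin, had 271 to 362 in the control libraries and 232 to 347 in those labelled knockout (log2 difference -0.06, SE 0.15, limma adjusted p = 0.787). The sign of Sema3b and Sema3g changed to positive when libraries were scaled without muscle, blood and the highest genes, and that of Sema3e to negative under quantile normalisation.

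The 1 gene called lower among the 46 was a membrane-bound semaphorin. Sema4d (chromosome 13, 51685529 to 51793747), a semaphorin of osteoclasts and lymphocytes that acts on plexin-B receptors and restrains bone formation, had 2169.6, 1650.4, 1541 and 1396 in the control libraries and 1189, 948, 858 and 908 in those labelled knockout. All 4 libraries labelled knockout lay below all control libraries, and replicate 1 was the highest of each group. The mean went from 1689 ± 337 to 976 ± 147 (SD, n = 4), a fall by 0.78 on the log2 scale (SE 0.15, limma adjusted p = 0.00818). The call remained whichever of the 8 libraries was left out. Of all genes tested 11.6% were called lower, and Sema4d was the only one of the 46 listed guidance genes among them. Of the 18 skeletal muscle markers 9 were called lower and 0 higher, with a median difference of -0.74, and their summed value was 2600150 to 2827750 in the control libraries and 1255530 to 1779290 in those labelled knockout. Osteoclast markers went the other way, with 8 of 9 called higher, against 11.6% of all genes. Their summed value was 2069 to 14800 and 10838 to 40587. The part of either list in the level of Sema4d was not tested.

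Sema4c and Sema4a rose. Sema4c (chromosome 1, 36548639 to 36558349), a ligand of plexin-B2, had 239, 214, 299 and 197 in the control libraries and 347, 430.2, 405 and 446 in those labelled knockout. The groups did not overlap (log2 difference 0.79, SE 0.14, limma adjusted p = 0.00764), and the call remained whichever library was left out. The annotation places exons of D430040D24Rik opposite it. Sema4a (chromosome 3, 88435959 to 88461182), known from immune cells, had 86.5, 28.3, 59.8 and 62.4 and 152, 117, 107 and 99.5. Control replicate 2 was the lowest and replicate 1 labelled knockout the highest, without overlap (log2 difference 1.08, SE 0.31, limma adjusted p = 0.0333). Its call was lost without control replicate 4 (limma adjusted p = 0.0579) or replicate 1 (0.0828), 2 (0.0710) or 4 (0.0632) labelled knockout. Quantile normalisation (0.0696) and leaving out replicate 3 of both groups (0.0629) also lost it.

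The remaining 8 membrane-bound members were not called or not tested. Sema6c, a transmembrane semaphorin, had the highest level of all 47 genes per kilobase, 619 for the control group and 511 for the other. Its normalised read count was 3108 to 4469 in the control libraries and 2520.5 to 3813 in those labelled knockout (log2 difference -0.28, SE 0.15, limma adjusted p = 0.195), and replicate 3 labelled knockout was the highest of its group by far. Sema7a, a lipid-anchored ligand of plexin-C1, had 346 to 644 in the control libraries and 562 to 688 in those labelled knockout (log2 difference 0.46, SE 0.18, limma adjusted p = 0.0898) and was called without control replicate 1 (limma adjusted p = 0.0209). Sema5a had 66.6 to 167 in the control libraries and 139 to 227 in those labelled knockout (log2 difference 0.78, SE 0.27, limma adjusted p = 0.0616) and was called without control replicate 1 (limma adjusted p = 0.0348) or replicate 2 labelled knockout (0.0483). DESeq2 (adjusted p = 0.0298), the replicate block (limma adjusted p = 0.0298) and the rescaling (0.0399) also called it. Sema6b, a ligand of plexin-A receptors, went from 137 ± 20.5 to 185 ± 37.9 (log2 difference 0.42, SE 0.17, limma adjusted p = 0.103). For Sema4b, Sema6a and Sema6d the differences were 0.22, 0.01 and 0.10 (limma adjusted p 0.467, 0.969 and 0.740). Under quantile normalisation the sign of Sema4b and Sema6a turned negative. Sema5b, with 3.24 to 9.86 in the control libraries and 2.64 to 11.96 in those labelled knockout, did not pass the filter and was not tested.

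Plexins are the signalling receptors of semaphorins. All 8 had a positive difference and 4 were called higher, against 11.6% of all genes. The sign of Plxnb1 turned negative under quantile normalisation and with either marker score as a covariate, as did that of Plxna1 with either score and that of Plxna3 with the muscle score. Plxnb2 (chromosome 15, 89155549 to 89180788), a receptor of Sema4c and Sema4d, had 505, 459, 748 and 504 in the control libraries and 937, 1017, 962 and 1287 in those labelled knockout. The groups did not overlap, and control replicate 3 was the nearest to the other group (log2 difference 0.94, SE 0.16, limma adjusted p = 0.00613). Plxnb1, the other receptor of Sema4d, had 83.8 to 199 in the control libraries and 100.1 to 154 in those labelled knockout (log2 difference 0.16, SE 0.28, limma adjusted p = 0.714). Within this pathway the ligand Sema4d was lower, Plxnb2 higher and Plxnb1 not called. Per kilobase the control level of Plxnb2 was 71.8 and that of Plxnb1 12.3.

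Plxnd1 (chromosome 6, 115954811 to 115995005), the endothelial receptor of Sema3e, was the most abundant plexin per kilobase, 176 in the control group. It had 1351, 1248, 1237 and 1296 and 1579, 1627, 1946 and 1459. The control libraries lay close together and all below those labelled knockout, of which replicate 3 was the highest. The rise was the smallest among called genes (log2 difference 0.36, SE 0.10, limma adjusted p = 0.0259). The call was lost without control replicate 2 (limma adjusted p = 0.0697), 3 (0.0504) or 4 (0.0563) or replicate 2 labelled knockout (0.0539), without replicate 3 of both groups (0.0622) and with the replicate number as a block (0.0691). Plxna3 (chromosome X, 74329066 to 74344689), a receptor of the class 3 semaphorins, had 59.5, 26.2, 49.5 and 50.4 and 78.8, 114, 87.0 and 127. Replicates 2 and 4 labelled knockout were the highest and the groups did not overlap (log2 difference 1.15, SE 0.27, limma adjusted p = 0.0175), and without replicate 4 labelled knockout the limma adjusted p was 0.0568. Plxnc1 (chromosome 10, 94790866 to 94944835), the receptor of Sema7a, is shown although its mean was under 50, having been chosen after its values were seen. It had 28.1, 14.1, 33.6 and 17.5 and 68.8, 49.6, 65.2 and 78.3, without overlap (log2 difference 1.51, SE 0.30, limma adjusted p = 0.00982).

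The other plexin-A genes were not called. Plxna1 had 366 to 485 in the control libraries and 451 to 580.1 in those labelled knockout (log2 difference 0.31, SE 0.12, limma adjusted p = 0.1002), and of the alternatives run it was called only when libraries were scaled without muscle, blood and the highest genes (limma adjusted p = 0.0395). Plxna2 and Plxna4 had differences of 0.26 (SE 0.18) and 0.28 (SE 0.18), with limma adjusted p-values of 0.300 and 0.282. Antisense genes lie opposite exons of Plxna1, Plxna4 and Plxnb1 in the annotation.

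Neuropilins bind class 3 semaphorins and also vascular endothelial growth factors, and they lack a signalling domain of their own. Nrp2 (chromosome 1, 62703285 to 62818695), the partner of Sema3f, had 1167, 389, 561 and 421 in the control libraries and 1259, 1047, 918 and 1199 in those labelled knockout. Control replicate 1 lay at the level of the libraries labelled knockout, and the other 3 control libraries were at most 561. It was called by limma (log2 difference 0.94, SE 0.30, limma adjusted p = 0.0475) and not by the exact two-sided permutation test (p = 0.0857) or edgeR (adjusted p = 0.0949). Leaving out control replicate 1 kept the call (limma adjusted p = 0.00750). Leaving out any of the other 7 libraries lost it, at 0.0512 to 0.124, as did leaving out replicate 3 of both groups (0.0807). Nrp1, the partner of Sema3a, had 466 to 726 in the control libraries and 439.8 to 879.8 in those labelled knockout (log2 difference 0.09, SE 0.21, limma adjusted p = 0.784). Per kilobase the neuropilins were alike in the control group, 57.7 for Nrp1 and 53.6 for Nrp2, and in the group labelled knockout they had 62.5 and 93.4.

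**Figure D3:**
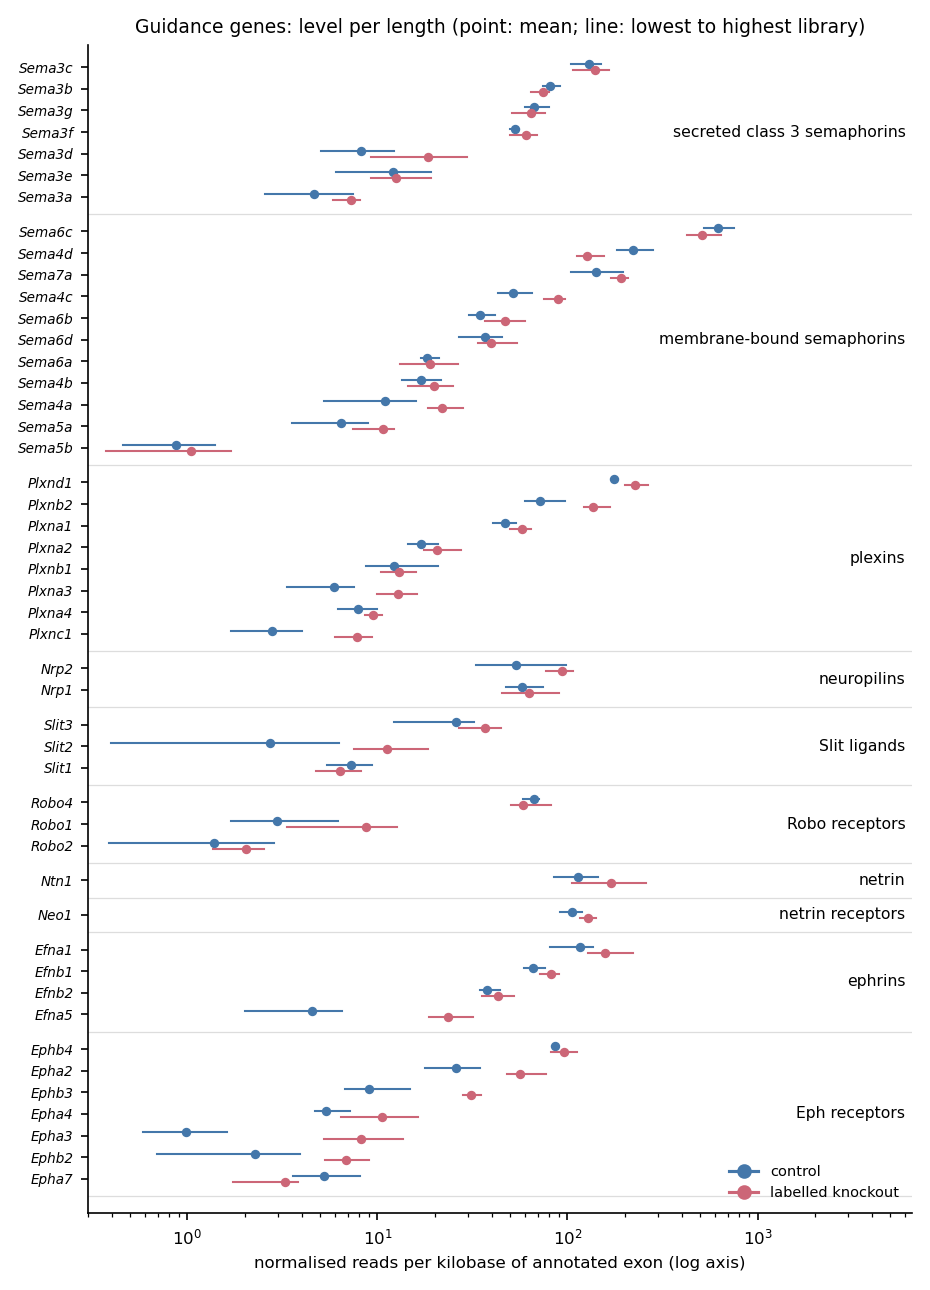
Normalised reads per kilobase of annotated exon (x axis, logarithmic) of the 47 guidance genes by role (y axis), points being group means and lines running from the lowest to the highest of 4 libraries. Sema6c lies highest in both groups, and the control range of Slit2 is the widest of the Slits.

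Known ligand and receptor pairs, picked for this description after the values were seen, were called together only in part. Both partners were called higher for Efna5 with Epha3, for Slit2 with Robo1 and for Sema4c with Plxnb2. The partners Sema4d and Plxnb2 were called in opposite directions, the ligand lower and the receptor higher. For Sema4d with Plxnb1 the ligand alone was called. The receptor alone was called for Sema7a with Plxnc1, Sema3f with Nrp2, Sema3e with Plxnd1 and Efna1 with Epha2. Of the 8 fits that left out 1 library, Robo1 was called in 2 and Nrp2 in 1. Neither partner was called for Efnb2 with Ephb4, Ntn1 with Neo1 or Sema3a with Nrp1. The difference between partners was not tested.

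Of 28 further guidance ligands and receptors, 26 had a row, 17 were tested, 4 were called higher and 1 lower. These are 23.5% and 5.88% of those tested, against 11.6% each way over all genes, and the median difference was 0.67. Draxin, a secreted netrin antagonist, went from 5.79 ± 5.62 to 66.4 ± 49.2 (log2 difference 3.65, SE 0.80, limma adjusted p = 0.0131). Efna4 went from 10.002 ± 5.44 to 27.5 ± 4.26 (log2 difference 1.49, SE 0.39, limma adjusted p = 0.0234) and Efna2 from 18.5 ± 1.54 to 37.1 ± 7.63 (log2 difference 0.95, SE 0.25, limma adjusted p = 0.0250), both lipid-anchored ephrins. Unc5b, a netrin receptor of vessels, went from 279 ± 107 to 426 ± 29.6 (log2 difference 0.68, SE 0.22, limma adjusted p = 0.0492). Efnb3 was lower, from 22.9 ± 4.35 to 11.1 ± 1.95 (log2 difference -0.98, SE 0.30, limma adjusted p = 0.0387). Leaving out a library brought the count to 1 to 3 higher and 0 to 1 lower, with 1 higher without control replicate 2 or replicate 4 labelled knockout and 2 without replicate 2 labelled knockout. Over all genes 974, 831 and 1147 were called higher in those 3 fits, against 1732 with all 8 libraries. A lower call remained in 1 of those 8 fits, that without control replicate 1, and in none of those without the filter or with the rescaling.

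Inside the cell these receptors act on the actin cytoskeleton and on microtubules. Of 45 effector genes, 44 were tested, 10 were called higher and 2 lower, which is 22.7% and 4.55% against 11.6% each way over all genes, and the median difference was 0.19. Those called higher included Dpysl2, Dpysl3, Mical1, Farp1, Fyn, Fes, Srgap3, Ngef and Cfl1, and those called lower were Mical2 and Mical3. Cfl1, which encodes the actin-severing protein cofilin, rose from 1642 ± 273 to 2896 ± 358 (log2 difference 0.82, SE 0.13, limma adjusted p = 0.00517). Dpysl3, a collapsin response mediator, rose from 511 ± 179.7 to 1151 ± 168 (log2 difference 1.22, SE 0.21, limma adjusted p = 0.00599). Fes, a tyrosine kinase downstream of semaphorins, rose by 0.97, and Mical1, a plexin-bound enzyme that oxidises actin, by 0.95. Its relative Mical2 had a difference of -0.82 (limma adjusted p = 0.0157). Without replicate 4 labelled knockout 5 effectors were called higher and without control replicate 2 6 were, and scaling without muscle, blood and the highest genes gave 16. Over all genes those settings called 831, 974 and 2708 higher, against 1732 in the main fit.

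The guidance genes called higher are set here beside 2 tissue lists. They were chosen for being higher in the group labelled knockout. Any list that is also higher there goes with them across the groups by that choice alone. Averaged over the 15 genes, the log2 value was 6.47, 5.73, 6.70 and 6.03 for the control libraries, in replicate order, and 7.82, 7.64, 7.52 and 7.75 for the others. Control replicate 3 had the highest mean of its group and was the highest control library for 9 of the 15 genes, and control replicate 1 was the highest for the other 6. Over all 46 tested genes control replicate 1 had the highest mean of its group (7.4998 against 7.4859 in replicate 3), and it was the highest control library for 22 genes against 17. The score of the 11 fibroblast markers, their mean log2 value, was also highest in replicate 3 among the control libraries, with 10.8, 10.3, 11.5 and 10.2 in the control libraries and 12.5, 12.5, 11.8 and 12.7 in those labelled knockout. All 11 fibroblast markers were higher and 10 were called (median difference 1.58), where 11.6% of all genes were called higher. The 12 macrophage markers had 8 called higher, with a summed value of 2931 to 6892 and 10160.5 to 14614. Their part in the guidance genes was not tested.

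**Figure D4:**
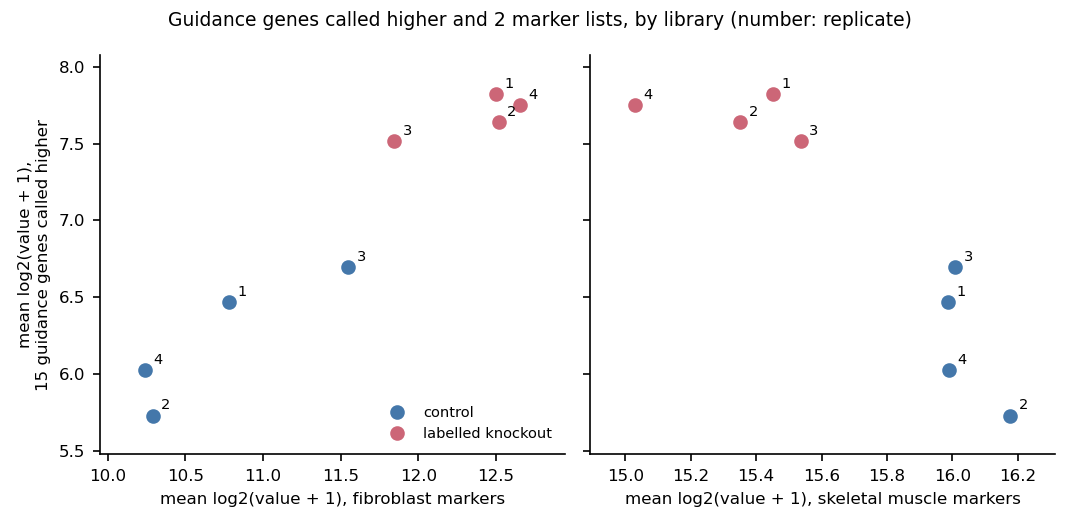
Mean log2(value + 1) of the 15 guidance genes called higher (y axis) against that of the fibroblast markers (left x axis) and of the skeletal muscle markers (right x axis), 1 point per library with its replicate number. The groups do not overlap on either axis. The libraries labelled knockout lie at 11.8 to 12.7 on the fibroblast axis, and control replicate 3, at 11.5, is the nearest control library.

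Osteoclast and osteoblast markers singled out replicate 1 of each group. Osteoclast markers summed to 14800 in control replicate 1 and to 2069, 2821 and 2296 in the other control libraries, and to 40587 in replicate 1 labelled knockout against 10838, 18272 and 29958. Osteoblast markers summed to 7003 against 1084, 2678 and 1434, and to 12440 against 5755, 6844 and 7310. Slit2, Sema4a, Epha2 and Nrp2 were highest in replicate 1 of both groups, and so was Sema4d. Schwann cell markers had a summed value of 819 to 1682 and 885 to 1769 and a median difference of -0.17. Of the 10, 1 was called higher, against 11.6% of all genes. It was S100b, which cartilage cells also express. The part of these cells in the guidance genes was not tested.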

How the data were processed

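Poly-A RNA of 8 knee joint samples was sequenced, and the groups were read from the sample titles. Per the submitters' processing notes, reads were aligned to mm10 with HISAT2 and counted with featureCounts. The authors normalised them with DESeq2, per the series' design text, and versions, annotation, strand setting and filters are not given in the sources used here. The deposited values are a normalised signal, the read count of a gene divided by a size factor per library. In each library 100% of the values were whole multiples, within 0.01, of the smallest positive value of that library, and the whole reads so recovered were used for edgeR 4.0.16 and DESeq2 1.42.0. In control replicate 2 and replicate 1 labelled knockout that step lies near 1 and alone carries little information. Of the value columns 0 were unmapped.

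Genes reaching 10 normalised reads in 4 or more of the 8 libraries were tested with limma 3.58.1 on log2(value + 1), with an intensity trend and Benjamini-Hochberg adjustment over 14949 genes. Single values were also compared by exact permutation over the 70 assignments of libraries, whose smallest p is 0.0286. Lengths are the union of exons in GENCODE M21, which gave 99.0% of rows a match. Exons of 8 guidance genes overlap another gene. The fits were checked on simulated counts. The members and lists were chosen with earlier results of these data known. All members are named. Values per library are given for called members whose groups do not overlap and whose mean reaches 50 or, failing any, for the most abundant gene per kilobase of a role. Of each further guidance list up to 5 called genes of smallest p are given by group means or differences. Epha3, Plxnc1, Robo1, Epha4, Sema3a and Robo4 were given by library after their values were seen.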

Additional observations from a re-analysis of the deposited data

Results flagged for a closer look

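Among the 92 sets of 4 libraries examined for the 46 tested genes, 9 held a library far from the other 3 by Dixon's criterion, where chance gives about 1 in 20. Control replicate 3 stood out for 3 genes that were called higher. Robo1 had 102 there against 28.1, 34.3 and 31.8, Ephb3 99.1 against 47.6, 49.5 and 44.9, and Epha4 58.0 against 37.9, 39.4 and 38.3. Replicate 3 labelled knockout stood out for 3 genes that were not called, Sema6d with 574 against 362.0, 377 and 358, Plxna2 with 474 against 308, 302 and 325, and Robo4 with 432 against 269, 266 and 267. Replicate 2 labelled knockout was low for Sema5a, with 139 against 218, 213 and 227, and for Epha7, with 17.1 against 36.9, 37.0 and 37.8. Epha2 had 362.0 in replicate 1 labelled knockout against 226, 226 and 238. Control replicate 3 was also the control library of highest Loxl2, at 1135 against 282 to 349.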

How the results depend on the processing

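Limits: the labels give no animal behind a replicate number, strand use is not stated, and 4 libraries per group leave exact p-values no lower than 0.0286. Depth limits Epha3, Efna5, Plxnc1 and Sema5b, whose control libraries hold few reads. It also limits Ephb2, Slit2 and Robo2, whose lowest control libraries had 8.76, 10.1 and 6.54 normalised reads. Of the 16 called genes, 8 were called in all 8 fits that omitted 1 library.

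Leaving out each library in turn gave 9 to 15 members called higher and 1 to 2 lower, 1751 to 3841 genes called in all, 1 to 3 further ligands and receptors higher and 0 to 1 lower, 5 to 12 effectors higher and 1 to 3 lower. The 9 members higher came without replicate 4 labelled knockout, as did 1751 genes, against 1887 without control replicate 2 and 2194 without control replicate 4. With the muscle or the fibroblast score as a covariate 0 members, 0 further genes and 0 effectors were called in either direction, 0 genes were called over all, and the median of the members was 0.20 with the muscle score. The scaling without muscle, blood and the highest genes gave 0 further genes lower, 16 effectors higher and 1 lower. Quantile normalisation gave 1 further gene higher and 1 effector lower. Without a filter 0 further genes were lower. Replicate numbers are shared by the groups, but same-numbered libraries deviated together only for replicate 1 (correlations 0.21, -0.12, -0.23 and -0.063), so the numbers were not taken to pair the libraries. With the replicate number as a block 2018 genes were called against 3461, 14 members higher and 1 lower, 2 further genes higher and 0 lower, and 1 effector lower. Leaving out the third library of each group together, chosen after the data were seen, gave 2 members lower, 2 further genes higher and 0 lower.

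Differences changed sign in 50 cases over 22 members, of which 2 were called genes (Plxna3 and Robo1), each with a marker score as a covariate. With the muscle score they were Sema3a -0.25, Sema3b 0.11, Sema3c -0.62, Sema3d -0.88, Sema3e -1.39, Sema6c 0.20, Plxna1 -0.15, Plxna3 -0.13, Plxnb1 -0.52, Slit3 -0.57, Robo4 0.20 and Ntn1 -1.26. With the fibroblast score they were Sema3b 0.0097, Sema3c -0.22, Sema3d -0.38, Sema3e -0.37, Sema3g 0.062, Sema6c 0.26, Sema7a -0.092, Plxna1 -0.20, Plxnb1 -0.036, Slit3 -0.54, Robo1 -0.83, Robo4 0.044, Ntn1 -0.48, Neo1 -0.036 and Epha7 0.043. Quantile normalisation gave Sema3e -0.076, Sema4b -0.0050, Sema6a -0.16 and Plxnb1 -0.062, the other scaling Sema3b 0.023 and Sema3g 0.085, and leaving out replicate 3 of both groups Sema6a -0.20, Sema6d -0.024 and Slit1 0.086. Leaving out 1 library gave ranges across 0 for Nrp1 -0.10 to 0.23, Sema3c -0.015 to 0.21, Sema3e -0.14 to 0.41, Sema3g -0.15 to 0.042, Sema6a -0.16 to 0.17, Sema6d -0.063 to 0.20. The cause was not tested.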
